A study of Homo sapiens and Mus musculus with 76 samples.

Results

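The aminoacyl-tRNA synthetases were followed here across 63 human libraries. Members were the rows of the deposited gene tables whose symbol is one of 36 synthetase symbols, 20 for cytosolic and 16 for mitochondrial enzymes (symbol ending in 2), among 23571 gene symbols. VARS and VARS2, the cytosolic and mitochondrial valine enzymes, were listed at 0 reads in all 63 libraries, and no level is given for them. The other 34 members, 19 cytosolic and 15 mitochondrial, had reads and passed the filter on low counts in every tested comparison.

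A synthetase joins an amino acid to the tRNAs that read its codons, and the charged tRNA is then used by the ribosome. Most serve 1 amino acid, and EPRS serves both glutamate and proline. The cytosol and the mitochondrion mostly use separate enzymes encoded by separate nuclear genes, although KARS (lysine) and GARS (glycine) serve both compartments. EPRS, IARS, LARS, MARS, QARS, RARS, KARS and DARS, the 8 enzymes of the multisynthetase complex, assemble on the scaffold proteins AIMP1, AIMP2 and EEF1E1. Several cytosolic synthetase genes are known targets of ATF4, the transcription factor of the response to amino acid shortage and endoplasmic reticulum stress.

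The study set an improved full-length cDNA protocol, Smart-Seq2, beside variants of it and the older SMART-Seq, all on polyadenylated RNA. HEK293T, a line from human embryonic kidney that carries the SV40 large T antigen, gave Smart-Seq2 libraries from total RNA at 1 ng (3 libraries), 100 pg (3) and 10 pg (2), from pools of 100, 50 and 10 cells (3 each) and from single cells (7). Single HEK293T cells were also prepared with Smart-Seq2 variants 1 (8 cells), 2 (8), 3 (6) and 4 (6) and with standard SMART-Seq (4), and single DG-75 cells, from a human B cell lymphoma line, with Smart-Seq2 (7). No group carried a treatment in the labels, and what sets the variants apart, or which cultures gave the libraries, is not given in the sources used here.

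Reads over genes ran from 1875471 to 5553383 per library in the RNA dilutions and pools, from 5285564 to 27876258 in single HEK293T cells and from 2235894 to 7882958 in DG-75 cells. Levels are reads per 1000000 gene reads (CPM) unless RPKM, which is also divided by transcript length, is named. In the RNA dilutions and pools a gene was called higher or lower at an adjusted p under 0.05 in edgeR's quasi-likelihood F test, two-sided, with Benjamini-Hochberg adjustment over all genes. With no culture named for the replicates, these p-values measure the spread between libraries, which may be technical. Each single-cell group counts as 1 sample, so those comparisons carry no test: reads were summed over cells, and a member was counted when its summed CPM, with 1 CPM added to both sides, differed by more than 2-fold. Their 95% Poisson intervals cover counting error only, because PCR-amplified reads without molecular identifiers are not independent molecules. The B cell markers fitted the DG-75 label, with 9 of 9 past 2-fold higher than in single HEK293T cells and a sum of 641 to 7644 CPM against 0 to 7.71 CPM. Of the kidney and neural markers of HEK293T 5 of 5 compared were lower in DG-75, and T cell markers were listed at 0 in both lines. Of 4 macrophage markers, 2 could be compared and both were past 2-fold higher in DG-75, with a sum of 0 to 294 CPM against 0 to 9.18 CPM.

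Per transcript length, cytosolic synthetases stood above their mitochondrial partners. The highest cytosolic members were SARS (serine), RARS (arginine) and TARS (threonine), with means over the 13 groups of 227, 225 and 215 RPKM. The lowest were CARS (cysteine) at 34.0, AARS (alanine) at 43.4 and QARS (glutamine) at 56.2 RPKM. Among mitochondrial members IARS2 (isoleucine), RARS2 (arginine) and TARS2 (threonine) were highest, at 75.2, 68.1 and 39.9 RPKM. CARS2, LARS2 (leucine) and AARS2 were lowest, at 5.75, 10.2 and 10.5 RPKM. PARS2 (proline) is left out of this order, because its RPKM implies a transcript of 128 bases where the GENCODE transcript has 2347. The classes thus overlap, since the mean of IARS2 lies above those of QARS, AARS and CARS.

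**Figure D1:**
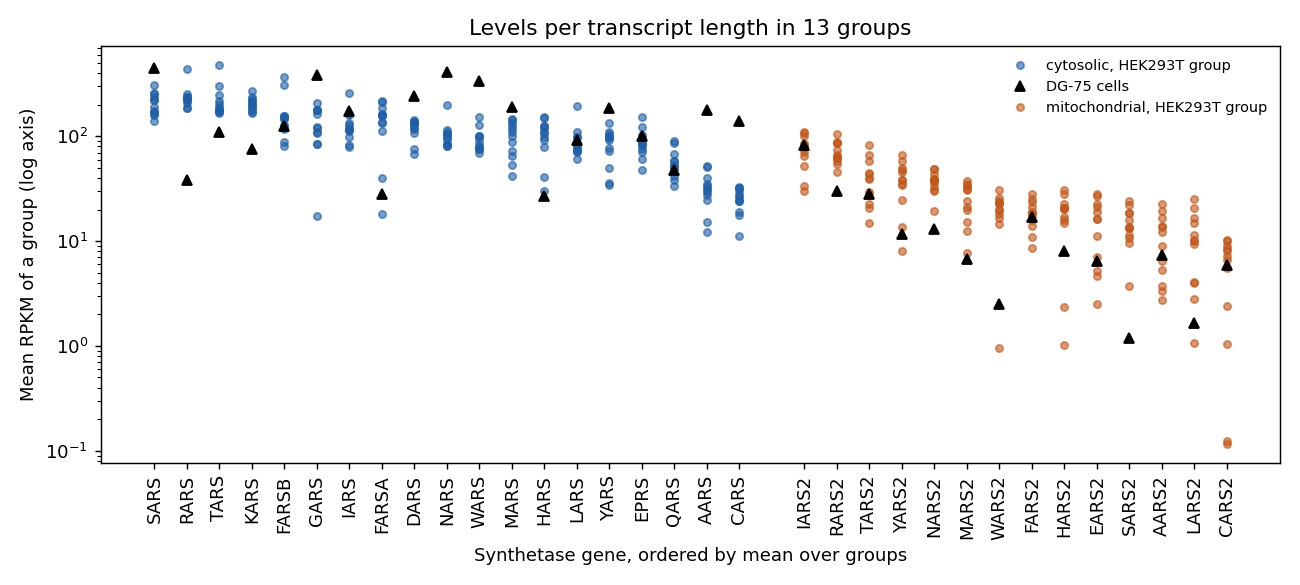
Mean RPKM of each synthetase in each of the 13 groups (log axis), with members ordered within class by their mean over groups, HEK293T groups as circles and DG-75 cells as triangles; PARS2, VARS and VARS2 are not plotted. SARS, RARS and TARS lie highest among cytosolic members, and CARS2, LARS2 and AARS2 lowest among mitochondrial ones.

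Where 1 amino acid has an enzyme in each compartment, the cytosolic gene had the higher RPKM in most libraries. It was higher in 63 of 63 libraries for EPRS over EARS2 (glutamate), LARS over LARS2 and SARS over SARS2, and in 62 for WARS over WARS2 (tryptophan). Apart from the proline pair, whose 26 of 63 libraries for EPRS over PARS2 rest on the unreadable PARS2 RPKM, the count was lowest for IARS over IARS2, with 54 libraries, and AARS over AARS2, with 55. In 1 ng of RNA the ratio of mean RPKM was 1.26 for the isoleucine pair and 1.84 for YARS over YARS2 (tyrosine), whereas it was 10.1 for the serine pair and 11.2 for FARSA over FARS2 (phenylalanine; FARSA and FARSB encode the alpha and beta subunits of the cytosolic enzyme). In single cells the serine ratio was 9.45 in HEK293T and 375 in DG-75, whereas the FARSA over FARS2 ratio was 9.90 in HEK293T and 1.66 in DG-75.

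Summed over members, the cytosolic class took 6735 ± 350 CPM (SD, n = 3) in 1 ng of HEK293T RNA and the mitochondrial class 1372 ± 45.7 CPM. In pools of 100 cells the sums were 4984 ± 123 and 812 ± 45.0 CPM, in pools of 50 cells 5946 ± 226 and 981 ± 25.4 CPM, and in pools of 10 cells 6909 ± 160 and 1236 ± 73.1 CPM (SD, n = 3 each). Both classes were lower in 100 than in 50 cells and lower in 50 than in 10 cells, with no overlap between libraries. CPM is scaled by library totals, and this scaling also moved all genes down beside the scaling of the edgeR fits. The median shift in log2 fold change was -0.20 for 100 against 50 cells, -0.08 for 50 against 10 and -0.26 for 100 against 10. The sums are not corrected for that shift. In single cells the 7 HEK293T libraries ran from 2832 to 7262 CPM for the cytosolic class, with 1 cell far below the others, and the 7 DG-75 libraries ran from 7578 to 14126 CPM. The cytosolic sums of these 7 Smart-Seq2 HEK293T cells and the 7 DG-75 cells did not overlap. Other HEK293T cells did reach the DG-75 range, with 4234 to 11359 CPM for variant 3 and up to 7831 CPM for variant 2. Variants 1 and 4 and SMART-Seq reached 7484, 7110 and 6551 CPM. The mitochondrial sum was 665 to 1254 CPM in HEK293T cells and had a median of 542 CPM in DG-75 cells, whose range of 465 to 1242 CPM overlapped that of HEK293T. The RNA and pooled libraries were all of the HEK293T line, and they do not show how levels vary from cell to cell within a pool. What lies behind the differences between pool sizes was not tested.

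**Figure D2:**
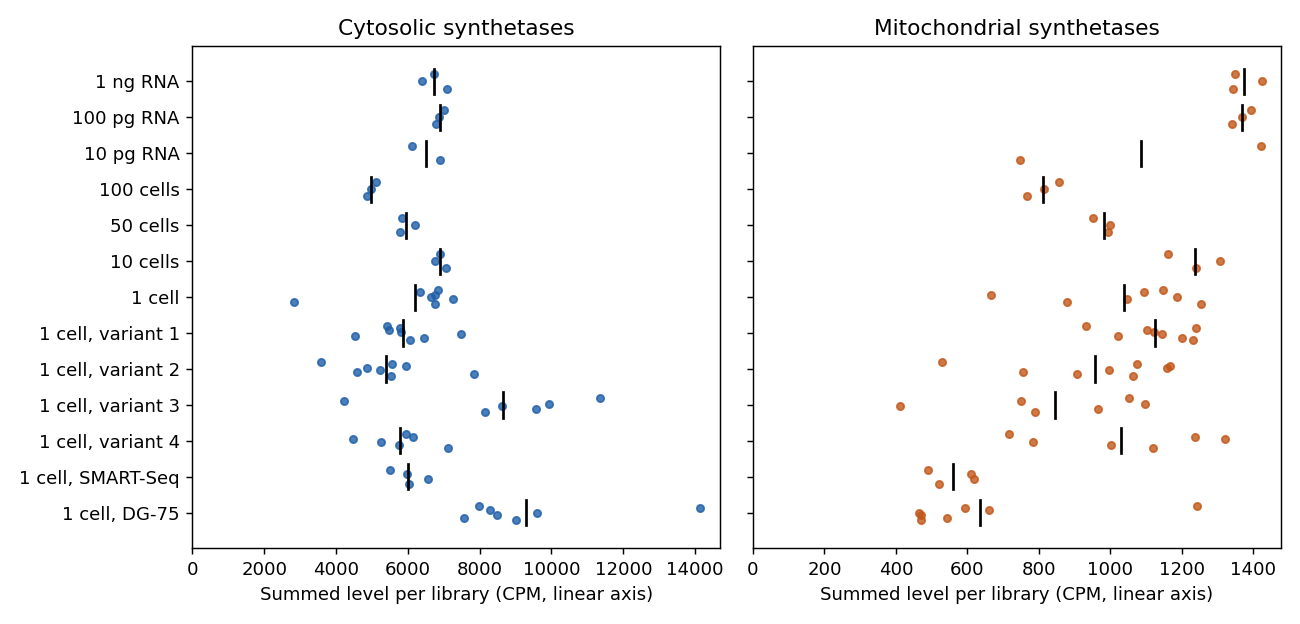
Summed CPM of the 19 cytosolic (left) and 15 mitochondrial (right) synthetases with reads in each library (points) by group, on linear axes with different ranges; the black line is the group mean, and groups marked 1 cell without a variant are Smart-Seq2. Both sums are lower in 100 than in 50 and in 50 than in 10 cells, and DG-75 cells lie above the HEK293T Smart-Seq2 cells in the cytosolic sum.

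The comparison of DG-75 with HEK293T single cells asks how synthetase levels differ between a lymphoma line and a kidney line under 1 protocol. Cytosolic members went both ways, with 6 past 2-fold higher in DG-75 (CARS, AARS, WARS, NARS, SARS, GARS) and 4 lower (RARS, FARSA, HARS, KARS). Mitochondrial members went 1 way only, with 8 of 15 past 2-fold lower and none higher. In all, 18 of 34 members were past 2-fold, against 56.2% of the 11800 genes compared (25.6% higher and 30.6% lower), so the share of members past 2-fold was close to that of all genes. The median log2 ratio was 0.26 over cytosolic members, -1.25 over mitochondrial members and -0.09 over all genes.

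CARS had a summed level of 327 CPM in DG-75 cells (95% interval 321 to 333) and 70.6 CPM in HEK293T cells (68.8 to 72.5), a log2 ratio of 2.20. Cell by cell it ran from 93.4 to 630 CPM (median 357) in DG-75 and from 40.8 to 109 CPM (median 64.2) in HEK293T, with some overlap. AARS had 589 against 129 CPM (log2 ratio 2.18), with 67.0 to 933 CPM (median 507) in DG-75 cells and 0.378 to 178 CPM (median 126) in HEK293T cells. WARS had 898 against 205 CPM (log2 ratio 2.13). Its DG-75 cells, at 356 to 1807 CPM (median 754), all lay above the HEK293T cells, at 77.1 to 322 CPM (median 189). NARS, the asparagine enzyme, had 1186 against 313 CPM (log2 ratio 1.92), and its DG-75 cells (367 to 3255 CPM, median 842) all lay above the HEK293T cells (236 to 363 CPM, median 286). SARS had 932 against 352 CPM (log2 ratio 1.40), with 560 to 1249 CPM in DG-75 cells and 232 to 517 CPM in HEK293T cells. WARS, NARS and SARS were the members whose 7 DG-75 cells all lay above the 7 HEK293T cells, which was so for 2.47% of all genes compared, and no member had the opposite order, which 5.16% of all genes had.

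RARS was the cytosolic member furthest below HEK293T, at 73.6 against 418 CPM (log2 ratio -2.49). Its DG-75 cells ran from 2.54 to 268 CPM (median 66.2) and its HEK293T cells from 179 to 553 CPM (median 436), with overlap at the top of the DG-75 range. FARSA, with 59.5 against 281 CPM, and HARS, the histidine enzyme, with 41.7 against 183 CPM, had log2 ratios of -2.22 and -2.11. FARSB, the partner subunit of FARSA, had 267 against 310 CPM, a log2 ratio of -0.22, so the subunit genes of 1 enzyme were at unequal ratios between the lines. The 8 multisynthetase complex members together were level, at 3148 ± 616 CPM in DG-75 and 3090 ± 892 CPM in HEK293T cells (SD over 7 cells each), and KARS and RARS were their only members past 2-fold. The cytosolic members outside the complex summed to 6152 ± 1801 against 3118 ± 749 CPM (SD over 7 cells each).

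Among mitochondrial members SARS2 had the lowest ratio, at 2.67 CPM in DG-75 (2.17 to 3.26) and 41.5 CPM in HEK293T (40.1 to 43.0), a log2 ratio of -3.53. Cell by cell it ran from 0 to 10.4 CPM (median 0.842) in DG-75 and from 2.27 to 73.1 CPM (median 40.7) in HEK293T. WARS2 and MARS2 (methionine) followed, with log2 ratios of -2.95 each, at 6.73 against 58.7 CPM and 6.24 against 54.8 CPM. LARS2 had 6.52 against 54.9 CPM (log2 ratio -2.89) and had reads in only 2 of the 7 DG-75 cells. IARS2, with 317 against 286 CPM, and TARS2, with 63.8 against 55.7 CPM, were within 2-fold. Of the 15 mitochondrial members, 5 to 10 were under 1 CPM in a DG-75 cell and 0 to 5 in a HEK293T cell. DG-75 libraries were shallower than the HEK293T ones and held fewer genes, a median of 9072 against 11282 when thinned to 1800000 reads. HEK293T cells of variant 3 and of SMART-Seq held medians of 8248 and 8793.5 genes at that depth. The part of depth and gene number in the cytosolic and mitochondrial ratios was not tested.

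**Figure D3:**
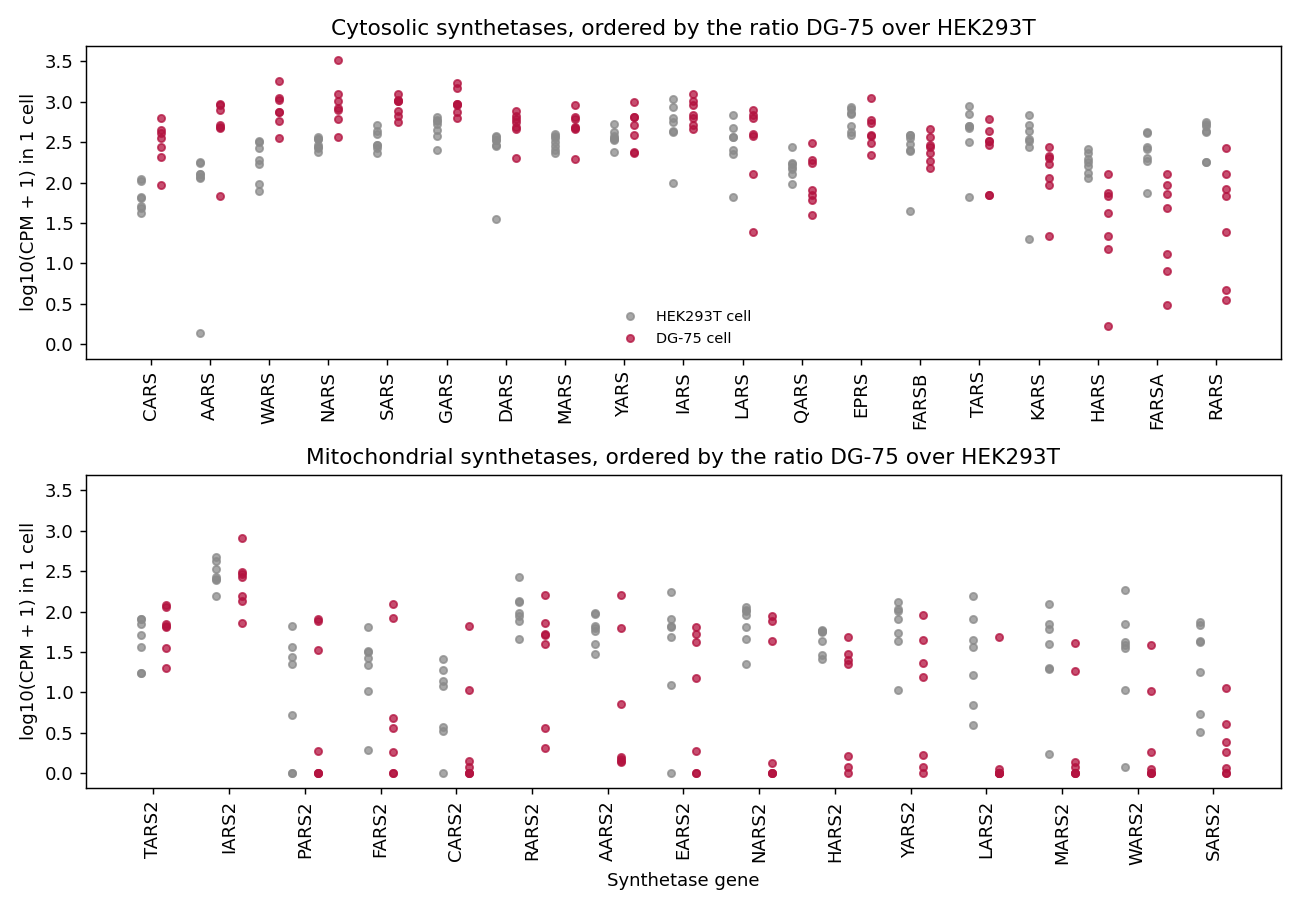
Level of each synthetase in each single Smart-Seq2 cell as log10(CPM + 1), 7 HEK293T cells in grey and 7 DG-75 cells in red, ordered from the highest to the lowest ratio of DG-75 over HEK293T. WARS, NARS and SARS separate the 7 DG-75 cells from the 7 HEK293T cells plotted, and SARS2, WARS2, MARS2 and LARS2 lie lowest in DG-75 cells.

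A group of 12 cytosolic members known from textbooks as ATF4-responsive (AARS, CARS, EPRS, GARS, IARS, LARS, MARS, NARS, SARS, TARS, WARS and YARS) held all 6 members past 2-fold higher in DG-75. The group was put together after the values had been seen, so it is a description only. Its sum ran from 6293 to 12602 CPM in DG-75 cells and from 2183 to 5185 CPM in the 7 Smart-Seq2 HEK293T cells. HEK293T cells of variant 3 reached the DG-75 range, with 2933 to 8861 CPM. The other 7 cytosolic members with reads summed to 1283 ± 329 CPM in DG-75 and 1938 ± 615 CPM in Smart-Seq2 HEK293T cells (SD over 7 cells each). Of 18 other ATF4 target genes, 11 were past 2-fold higher in DG-75 and none lower, against 25.6% of all genes higher and 30.6% lower. Their median log2 ratio was 1.56. Among them ATF5, a stress-induced transcription factor, had 494 against 19.2 CPM, TRIB3, a pseudokinase, 468 against 27.6 CPM and ASNS, asparagine synthetase, 625 against 266 CPM. ATF4 itself, which is mainly controlled in its translation, had 562 against 295 CPM (log2 ratio 0.93). The lists share no gene, and single cells carry no test of either. The 18 ATF4 targets also moved past 2-fold between HEK293T groups. Against Smart-Seq2, variant 3 had 12 lower and none higher (45.3% of all genes lower), and SMART-Seq 10 lower and 1 higher (38.5% lower). Single cells had 8 higher and none lower than pools of 10 (21% of all genes in either direction). With variant 3 the median log2 ratio was -1.70 for these targets and 0.43 for the 12 cytosolic members.

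Promoter sequence was read for these genes because the amino acid response acts through a short element, the C/EBP-ATF response element, searched here as TGATGNAA on both strands. Windows of 300 bases, from 250 before to 50 after the RefSeq start (GRCh38.p14), were present for 28 members, and 7 held the element, among them 6 of 14 cytosolic and 1 of 14 mitochondrial members. It occurred in 4.46% of 27305 gene symbols, and in 3.62% of 35116 windows of this length. The 6 cytosolic genes were AARS, CARS, IARS, MARS, NARS and TARS, all in the ATF4-responsive group, 8 of whose genes had a window. WARS and EPRS of that group had none, nor had FARSA, FARSB, HARS, KARS, QARS or RARS, and 3 of the 15 ATF4 target genes with a window held it. In the stretches below the match is in capitals, and TTGCATCA is TGATGCAA on the opposite strand. The 60 bases around the matches, that of NARS excepted, are printed 5′ to 3′ on the gene's strand to place the element. They lie at chr16:70289660-70289719 (AARS, minus strand), chr11:3057394-3057453 (CARS, minus), chr9:92293677-92293736 (IARS, minus), chr12:57488038-57488097 (MARS, plus), chr5:33440935-33440994 (TARS, plus) and chr12:32756061-32756120 (YARS2, minus).
AARS: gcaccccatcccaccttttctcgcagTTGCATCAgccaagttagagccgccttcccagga
CARS: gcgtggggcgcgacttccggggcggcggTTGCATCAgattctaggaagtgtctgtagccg
IARS: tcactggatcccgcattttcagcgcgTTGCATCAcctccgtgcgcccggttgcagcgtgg
MARS: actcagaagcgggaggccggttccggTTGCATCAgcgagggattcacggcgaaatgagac
TARS: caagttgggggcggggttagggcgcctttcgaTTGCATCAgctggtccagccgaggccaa
YARS2: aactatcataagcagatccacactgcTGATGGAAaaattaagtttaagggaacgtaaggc

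The search left only the N of TGATGNAA free to differ, so the other letters are shared by the search itself. That letter was C in all 6 cytosolic matches (TGATGCAA) and G in the YARS2 match (TGATGGAA). The first base of the match lay at -13 for IARS, -4 for MARS, -2 for CARS, 2 for TARS and 14 for NARS, counted from 0 at the start site, and at -187 for AARS and -197 for YARS2. The matching genes did not share a direction between the lines. AARS, CARS and NARS had log2 ratios of 2.18, 2.20 and 1.92, MARS 0.76, IARS 0.26 and TARS -0.87, while WARS, with no match, had 2.13. A match is a description of the sequence and not of binding.

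HARS and HARS2 are transcribed away from each other, with 84 bases between their start sites, at chr5:140691371-140691454 (GRCh38.p14, plus strand), a stretch shown because 1 short region lies before both histidine enzymes.
HARS/HARS2: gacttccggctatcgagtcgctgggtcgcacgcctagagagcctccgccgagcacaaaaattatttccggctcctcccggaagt

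Both genes were past 2-fold lower in DG-75 cells. HARS had 41.7 against 183 CPM, and HARS2 had 14.9 against 49.2 CPM (log2 ratio -1.65), with reads in 6 of 7 DG-75 cells. The 2 genes did not share a direction in every comparison. In variant 3 HEK293T cells HARS had a mean of 29.9 RPKM, against 99.3 with Smart-Seq2, and HARS2 28.3 against 20.9 RPKM. The strand used in counting is not given in the sources used here, so reads from the edges of this pair cannot be assigned further.

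Of 19 symbols listed as partners of tRNA charging, 17 could be compared. Among these, 3 were past 2-fold higher and 7 lower in DG-75 (median log2 ratio -0.79), against 25.6% of all genes higher and 30.6% lower. Of the complex scaffolds, AIMP1 had 240 against 113 CPM (log2 ratio 1.08), AIMP2 43.0 against 103 CPM (log2 ratio -1.24) and EEF1E1 91.3 against 104 CPM (log2 ratio -0.18). SEPSECS, which completes selenocysteine on its tRNA, had 32.2 against 1.60 CPM, and DTD1, which removes D-amino acids from tRNA, had reads in 1 of 7 DG-75 cells, with 0.0545 against 74.6 CPM.

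The comparison of SMART-Seq with Smart-Seq2 on single HEK293T cells concerns the protocols themselves, and the same 7 Smart-Seq2 cells serve here, in the comparisons of the variants and in that of DG-75. Against Smart-Seq2, 1 member was past 2-fold higher with SMART-Seq and 15 were lower, 5 cytosolic and 10 mitochondrial. Over all 11254 genes compared 57.8% were past 2-fold, 19.3% higher and 38.5% lower, so lower ratios prevailed among all genes too. The median log2 ratio was -0.37 for cytosolic members, -1.08 for mitochondrial members and -0.43 for all genes. FARSB was the member past 2-fold higher, with 797, 943, 354 and 1170 CPM in the 4 SMART-Seq cells and 43.7 to 391 CPM (median 300) in the 7 Smart-Seq2 cells, a log2 ratio of 1.38 of the sums. SARS and WARS followed, with ratios within 2-fold (0.73 and 0.65). HARS2 was furthest below, with 0.0783, 20.4, 0 and 0 CPM in the SMART-Seq cells and 24.6 to 57.4 CPM in the Smart-Seq2 cells. Its summed levels were 4.54 CPM (4.01 to 5.11) and 49.2 CPM (47.6 to 50.8), a log2 ratio of -3.18. EARS2, at 8.77 against 68.2 CPM, and MARS2, at 10.3 against 54.8 CPM, had log2 ratios of -2.82 and -2.30. HARS2, YARS and MARS lay below every Smart-Seq2 cell in every SMART-Seq cell, which was so for 7.93% of all genes.

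Variant 3 stood apart from the other Smart-Seq2 variants. It had 5 members past 2-fold higher and 13 lower than Smart-Seq2, against 64.1% of 10891 genes (18.9% higher and 45.3% lower). The median log2 ratio was 0.27 for cytosolic members (4 higher, 5 lower), -1.01 for mitochondrial members (1 higher, 8 lower) and -0.68 for all genes. TARS2 had 161 against 55.7 CPM, LARS 1021 against 377 CPM and TARS 1383 against 542 CPM, with log2 ratios of 1.52, 1.43 and 1.35. GARS was low in every variant 3 cell, at 15.4 to 158 CPM (median 26.0) against 254 to 639 CPM (median 526) with Smart-Seq2, and its summed level was 62.5 against 522 CPM (log2 ratio -3.04). SARS2 and FARSA were low too, at 3.79 against 41.5 CPM and 38.2 against 281 CPM. Every variant 3 cell lay below every Smart-Seq2 cell in 4 of 34 members, GARS among them, and in 1212 of 10891 genes. FARSB had 780 against 310 CPM, so here as well the FARSA and FARSB subunits were at unequal ratios. None of the 34 members was past 2-fold with variant 1 (14.3% of all genes) or variant 4 (19.5% of all genes). With variant 2, CARS2 and MARS2 were lower, with log2 ratios of -1.18 and -1.01 (18.2% of all genes, 10.3% lower).

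Detection followed the classes. Thinned to 1800000 reads, every library kept at least 18 of the 19 cytosolic members. All 15 mitochondrial members were detected in each library of 1 ng, 100 pg, 100, 50 and 10 cells, and 12 in each library of 10 pg. Single Smart-Seq2 cells of HEK293T held 12 to 15 (median 15), SMART-Seq cells 6 to 11 (median 10.5) and DG-75 cells 6 to 12 (median 11). Among the variants, variant 3 cells held 8 to 15 (median 12.5), variant 2 cells 12 to 15 (median 13.5), and variants 1 and 4 13 to 15. Unthinned, SMART-Seq cells held 9 to 14 and DG-75 cells 8 to 12. CARS2 and PARS2 were the mitochondrial members with reads in the fewest libraries, 48 and 46 of 63, and IARS2 and RARS2 had reads in all 63. The PARS2 RPKM implies only 128 bases, and whether its reads were counted over so short a stretch is not known. The part of this in its detection and calls was not tested.

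**Figure D4:**
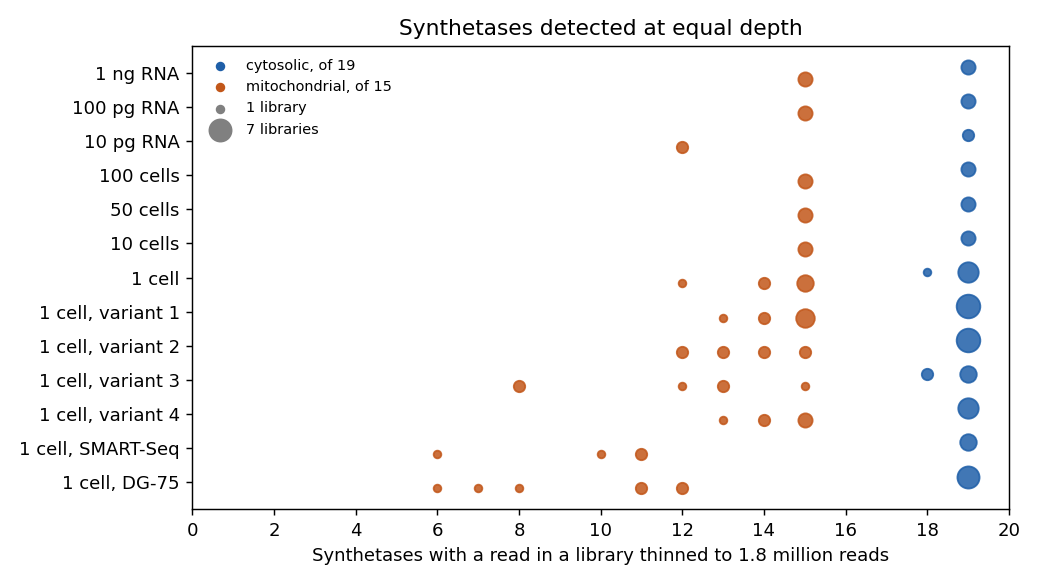
Number of cytosolic (blue, of 19) and mitochondrial (orange, of 15) synthetases with at least 1 read in each library after thinning to 1800000 reads, by group; the area of a dot grows with the number of libraries. Cytosolic counts stay at 18 or 19, and the mitochondrial counts reach down to 6 in SMART-Seq and DG-75 cells and to 8 in variant 3 cells.

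Pools of 100 cells were set against 1 ng of HEK293T total RNA, the larger input of each source. Members fell more often than they rose, with 17 lower and 5 higher in the cells, and the mitochondrial members fell furthest. Over all 11487 genes 62.7% were called (29.7% higher and 33.1% lower), so the 22 of 34 members called are near the background, and their median log2 fold change was -0.44 beside -0.03 for all genes. By class 9 of 19 cytosolic members fell and 2 rose, with a median of -0.24, and 8 of 15 mitochondrial members fell and 3 rose, with a median of -0.82. Of the 8 multisynthetase complex members 4 fell (EPRS, IARS, MARS and QARS) and none rose.

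LARS2 had 103, 105 and 112 CPM in the 1 ng libraries and 10.4, 10.4 and 14.9 CPM in the 100-cell libraries. The log2 fold change was -2.92 ± 0.22 (SE; edgeR adjusted p = 2.85e-09, n = 3 per group). AARS2 had 85.1, 76.0 and 99.1 CPM in RNA and 14.3, 14.8 and 16.4 CPM in cells, a change of -2.28 ± 0.21 (SE; edgeR adjusted p = 3.95e-08). The libraries of cells lay far below those of RNA for both genes. The groups did not overlap, in either direction, in 24 of 34 members and in 7648 of 11487 genes. AARS had 179, 165 and 192 CPM in RNA and 36.3, 33.5 and 55.3 CPM in cells, a change of -1.87 ± 0.20 (SE; edgeR adjusted p = 2.92e-07). CARS had 93.3, 72.5 and 80.4 CPM in RNA and 25.3, 23.4 and 36.7 CPM in cells, a change of -1.30 ± 0.22 (SE; edgeR adjusted p = 4.31e-05). Thus the alanine enzymes of both compartments were among the members that fell most. The others that fell were EARS2 (-1.69), PARS2 (-1.35), TARS2 (-1.23), MARS2 (-1.10), SARS2 (-0.95), YARS (-0.88), GARS (-0.82), IARS2 (-0.82), MARS (-0.81), FARSA (-0.70), QARS (-0.60), IARS (-0.59) and EPRS (-0.52), each value a log2 fold change.

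Of the members that rose, RARS2 had 108, 93.1 and 94.8 CPM in RNA and 162, 164 and 150 CPM in cells, a log2 fold change of 0.92 ± 0.17 (SE; edgeR adjusted p = 1.64e-04). With an offset for transcript length and GC content it was -0.27 (edgeR adjusted p = 0.0481), the opposite direction. NARS had 234, 247 and 234 CPM in RNA and 323, 339 and 244 CPM in cells, a change of 0.58 ± 0.17 (SE; edgeR adjusted p = 6.94e-03). FARSB had 327, 274 and 273 CPM in RNA and 384, 373 and 301 CPM in cells, a change of 0.51 ± 0.17 (SE; edgeR adjusted p = 0.015). CARS2 (0.65) and FARS2 (0.53) rose as well. Scaled by library totals, which moved the median of all genes by -0.23, NARS, FARSB, CARS2 and FARS2 were no longer called (edgeR adjusted p = 0.0775, 0.142, 0.151 and 0.227), which left RARS2 alone among these 5. With the offset FARSB and FARS2 were not called (edgeR adjusted p = 0.102 and 0.85).

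Transcript composition moved with these calls. The 17 members that fell had a median GC content of 53.5% and length of 3019 bases, the 5 that rose 44.3% and 1879 bases, and the 12 not called 45.3% and 2475 bases. With the offset for length and GC content 21 members were called, 19 lower and 2 higher, against 60.1% of all genes. Of these, 14 had the same direction in both fits and 1 the opposite. All genes moved down in that fit as well, with a median log2 fold change of -0.24 beside -0.41 for the members. AARS2 was then -0.90 and TARS2 -0.65, and members with larger falls than AARS2 included LARS2 (-2.26), AARS (-1.12) and EARS2 (-1.08). FARSA, MARS and SARS2 lost their calls (edgeR adjusted p = 0.0984, 0.0812 and 0.208), and QARS (0.10) and YARS (0.05) turned above 0 without a call, so EPRS and IARS were the complex members of the 4 that stayed called. Replicates 1 and 2 of the 100-cell pools were near-identical, with a mean chi-square of 1.81 per gene against 20.8 and 20.5 with replicate 3, and may not be independent. Taken as 1 library, they gave 21 members called here (5 higher, 16 lower), 10 for 100 against 10 cells (none higher) and 6 for the interaction, where n = 3 otherwise counts both.

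The genes that work beside the synthetases had 8 of 18 higher, 4 lower and 6 not called in this comparison, beside 29.7% of all genes higher and 33.1% lower. EEF1E1, a scaffold of the complex, rose by 1.99 on the log2 scale (edgeR adjusted p = 4.07e-05), SSB, the La protein that binds new tRNA transcripts, by 1.14, and AIMP1 and AIMP2 by 0.79 and 0.61. XPOT, the exporter of tRNA from the nucleus, fell by 0.59 and DTD2, a deacylase of mischarged tRNA, by 0.81. Of the 16 other ATF4 targets tested, 2 rose and 7 fell, among them SLC7A5, an amino acid transporter, with a change of -2.98 (edgeR adjusted p = 5.31e-09).

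At the smaller input, 10 cells against 100 pg of RNA, fewer members differed. There were 6 lower in the cells and 2 higher, 8 of 34, against 19.3% of 11671 genes (7.81% higher and 11.5% lower), and the median over members was -0.05. AARS2 had 87.5, 117 and 98.2 CPM in RNA and 20.4, 27.6 and 23.2 CPM in cells, a log2 fold change of -2.11 ± 0.23 (SE; edgeR adjusted p = 6e-05, n = 3 per group). LARS2 had 97.8, 74.6 and 93.6 CPM in RNA and 48.2, 37.8 and 34.0 CPM in cells, a change of -1.17 ± 0.22 (SE; edgeR adjusted p = 0.00276). EPRS, which charges both glutamate and proline tRNAs, had 519, 535 and 531 CPM in RNA and 381, 372 and 323 CPM in cells, a change of -0.58 ± 0.11 (SE; edgeR adjusted p = 0.00235). In each of these genes the cells lay below every RNA library. The groups did not overlap, in either direction, in 17 of 34 members and in 4399 of 11671 genes. AARS (-0.65), GARS (-0.43) and EARS2 (-0.58) fell too, of which AARS and EARS2 were not called with the length and GC offset (edgeR adjusted p = 0.0986 and 0.224), nor EARS2 with library totals (0.0593). HARS2 rose, with 44.5, 26.3 and 34.8 CPM in RNA and 68.8, 65.9 and 68.7 CPM in cells, a change of 0.93 ± 0.24 (SE; edgeR adjusted p = 0.0182). SARS rose by 0.41 ± 0.12 (SE; edgeR adjusted p = 0.0345), a call lost with the offset (0.20; edgeR adjusted p = 0.253). Leaving out 1 library at a time gave 3 to 9 members called.

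All 6 members that fell at 10 cells (AARS, AARS2, EARS2, EPRS, GARS and LARS2) were among the 17 that fell at 100 cells, which is 100% of the shorter and 35.3% of the longer list. Over all genes 89.9% of the 1341 lower at 10 cells were also lower at 100 cells, so the members' overlap is near that of all genes. No member rose in both. These comparisons share no library.

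**Figure D5:**
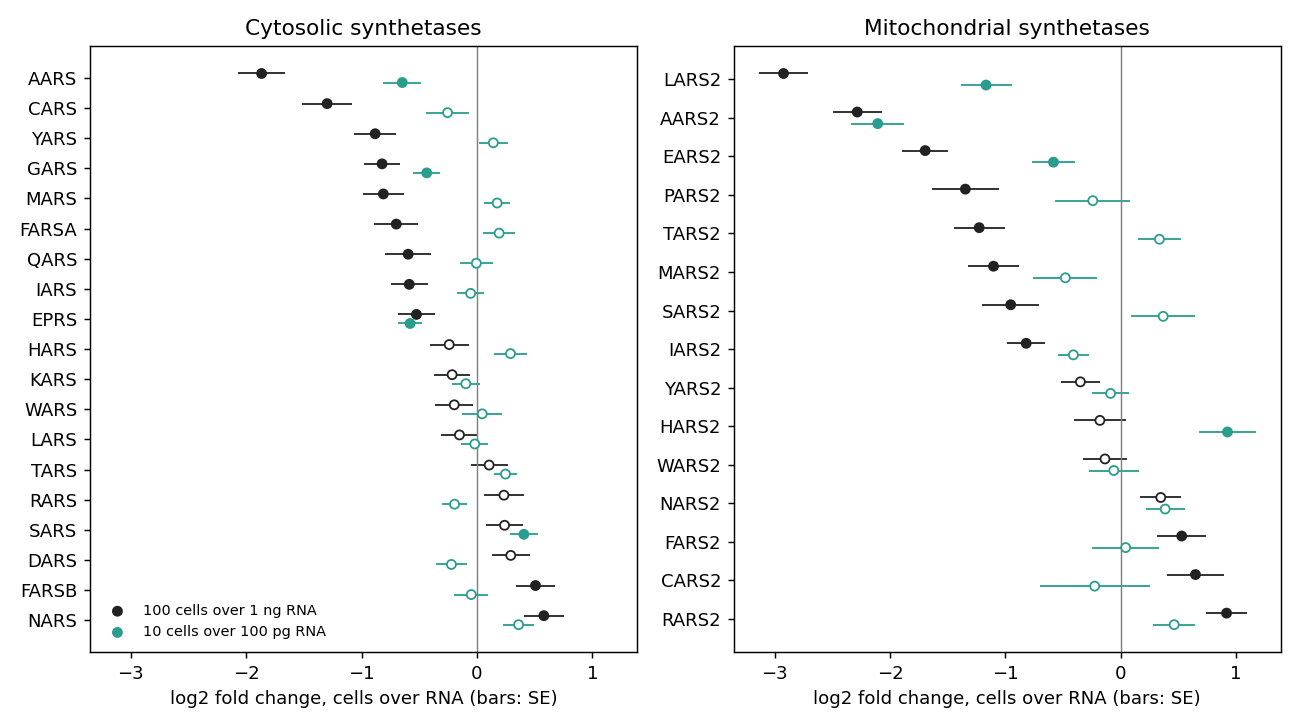
Log2 fold change of each synthetase in pooled cells over RNA, with its SE as bars, for 100 cells over 1 ng (black) and 10 cells over 100 pg (green), with filled points for an edgeR adjusted p under 0.05. In these fits, made without the length and GC offset, LARS2 and AARS2 lie furthest below 0 among the members plotted.

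The test of the difference between the inputs, an interaction of source and input, called 10 members, all with a lower ratio of cells over RNA at the larger input. They were 5 cytosolic (AARS, CARS, FARSA, MARS, YARS) and 5 mitochondrial (EARS2, HARS2, LARS2, SARS2, TARS2), against 17.9% of 12192 genes (10.7% lower). LARS2 had an interaction of -1.75 ± 0.30 (SE; edgeR adjusted p = 5.88e-04), TARS2 of -1.55 ± 0.31 (SE; edgeR adjusted p = 0.00192), MARS of -0.98 ± 0.22 (SE; edgeR adjusted p = 0.00365) and AARS of -1.21 ± 0.27 (SE; edgeR adjusted p = 0.00414), all on the log2 scale. AARS2, which fell at both inputs, was not among them. The members called had a median GC content of 53.6% and those not called 45.45%. With the length and GC offset 7 were called, without CARS, SARS2 and YARS (edgeR adjusted p = 0.0617, 0.122 and 0.145). The count was 6 without replicate 1 or without replicate 2 of the 100-cell pools and 16 without their replicate 3.

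Across the pools themselves, 100 against 10 cells called 15 members, 13 lower and 2 higher in 100 cells, against 31% of 11514 genes (13.6% higher and 17.4% lower). TARS2 fell most surely. It had 147, 132 and 141 CPM in 10 cells, 61.0, 66.5 and 66.4 CPM in 50 cells and 27.7, 29.1 and 50.6 CPM in 100 cells, with a log2 fold change of -1.71 ± 0.23 (SE; edgeR adjusted p = 1.28e-04) for 100 against 10. The 3 pool sizes did not overlap in TARS2. Pools of 100 and 10 cells did not overlap in 24 of 34 members and 5032 of 11514 genes. For 50 and 10 cells this held in 14 members and 3581 of 11451 genes, and for 100 and 50 cells in 5 members and 1732 of 11354 genes. LARS2 (-1.48; edgeR adjusted p = 7.15e-04), AARS (-1.18; edgeR adjusted p = 8.19e-04) and IARS (-0.77; edgeR adjusted p = 9.91e-04) fell too. DARS, the aspartate enzyme, rose by 0.53 and RARS by 0.44 (edgeR adjusted p = 0.0234 and 0.0359), and neither was called with library totals or with the length and GC offset. Without 1 library at a time the count ran from 9 to 21.

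Between 50 and 10 cells, a comparison that shares its 10-cell libraries with the one of 100 and 10 cells, 5 members fell and none rose, against 11.2% of 11451 genes (8.06% lower). They were TARS2 (-1.03; edgeR adjusted p = 0.00206), LARS2 (-1.16; edgeR adjusted p = 0.00616), AARS (-1.03; edgeR adjusted p = 0.00771), SARS2 (-0.79; edgeR adjusted p = 0.0314) and EARS2 (-0.69; edgeR adjusted p = 0.0421). With the length and GC offset SARS2 and EARS2 were not called (edgeR adjusted p = 0.124 and 0.0592). The count was 2 without replicate 1 and 12 without replicate 3 of the 50-cell pools.

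Between 100 and 50 cells no member of 34 and 0% of 11354 genes were called by edgeR, 4 members had an unadjusted p under 0.05 (EARS2, IARS, TARS2 and YARS, all lower in 100 cells), and DESeq2 called none of the members. No label states a pairing of these libraries. The replicate numbers were taken as pairs because deviations from the group mean correlated at 0.14, 0.50 and 0.67 in these same data. Replicates 1 and 2 of the 100-cell pools were near-identical, so the pairs may not be independent. With the replicate block 7 members were called, 6 lower and 1 higher, against 13.9% of all genes (5.56% lower). They were TARS2 (-0.67), YARS (-0.47), EARS2 (-0.47), CARS (-0.45), MARS (-0.42), IARS (-0.36) and DARS (0.31), each a log2 fold change from the blocked fit.

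Dilution of RNA from 1 ng to 100 pg left no member called by edgeR (0.0262% of 11469 genes). EPRS and LARS had an unadjusted p under 0.05, and DESeq2 called none of the members. From 1 ng to 10 pg 3 members were called, all mitochondrial and higher at 1 ng, against 18.4% of 11087 genes (16.9% higher). LARS2 had 6.93 and 2.16 CPM in the 10 pg libraries, a log2 fold change of 4.60 ± 0.66 (SE; edgeR adjusted p = 0.0134). CARS2 had 0 and 0.432 CPM at 10 pg and WARS2 0.533 and 4.75 CPM, with edgeR adjusted p = 0.0175 and 0.0398. The 2 libraries of 10 pg disagreed in other members. QARS had 432 and 56.6 CPM, AARS 27.7 and 181 CPM, EARS2 40.0 and 0 CPM, and NARS2 0 and 145 CPM. Without any 1 of the 1 ng libraries no member was called, and without 1 of the 10 pg libraries 21 or 18 were.

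Single HEK293T cells were also set against pools of 10 cells prepared with the same protocol, which differed past 2-fold in 2 members (21% of 11030 genes). AARS2 had 28.6 to 94.7 CPM in single cells (median 62.1) and 20.4 to 27.6 CPM in the pools, a log2 ratio of 1.45 of the summed levels. TARS2 had 16.3 to 80.5 CPM in single cells (median 50.0) and 132 to 147 CPM in the pools, a log2 ratio of -1.31. For both genes the single cells and the pools did not overlap. All single cells lay above the pools in 2 of 34 members and 268 of 11030 genes, and below them in 2 members and 692 genes. Against 10 pg of RNA 6 members were past 2-fold (46.4% of 10993 genes, 29.7% higher and 16.7% lower), with WARS2, HARS2, LARS2, CARS2 and EARS2 higher in single cells (log2 ratios of 3.95, 3.79, 3.40, 3.10 and 1.87) and TARS2 lower (-1.78).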

How the data were processed

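The authors deposited 1 table per library with whole-number read counts per gene and RPKM values, per the file headers, and 63 human libraries in 13 groups were used. The 13 mouse libraries were not used. Alignment was with STAR to hg19 (GRCh37), per the submitters' processing notes, and gene entries carry RefSeq identifiers, per the file headers. How genes were counted (tool, strand, reads with several matches) is not given in the sources used here, nor is the length behind each deposited RPKM value.

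Entries of 1 symbol were summed and CPM computed from the deposited counts. In R 4.3.3, edgeR 4.0.16 fitted the quasi-likelihood F test with TMM factors and filterByExpr, with only the groups compared in a fit. DESeq2 1.42.0, limma 3.58.1 on log2(RPKM + 1) and log2(RPKM + 0.1), library totals, no filter, an offset for length and GC content, a replicate block, all 6 input groups in 1 fit and leaving out each library were alternatives. The edgeR script was tested on simulated data. Single-cell ratios used genes with at least 5 CPM in either group. The members and lists were chosen with earlier results of these data known. Full statistics went to the 2 members of each class that were called with the lowest adjusted p on either side, or to the 3 largest single-cell ratios on either side at 20 CPM or more. Replicate numbers, which no label calls pairs, were taken to pair the 100-cell and 50-cell libraries, whose correlations of deviations were 0.14, 0.50 and 0.67. Elsewhere the correlations ran from -0.08 to 0.37 and did not all pass 0.1.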

Additional observations from a re-analysis of the deposited data

Results flagged for a closer look

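A sample was singled out when it lay far from the other 6 of its single-cell group, and chance does so in about 1 of 20 groups tested. For the class sums the lowest HEK293T Smart-Seq2 cell (replicate 2) had 2832 CPM of cytosolic synthetases, the highest DG-75 cell had 14126 CPM, and the highest DG-75 cell in the mitochondrial sum had 1242 CPM. By gene, AARS had 0.378 CPM in the lowest HEK293T cell, SARS2 had 10.4 CPM and WARS2 37.2 CPM in the highest DG-75 cell, and WARS2 had 186 CPM in the highest HEK293T cell. Without replicate 2 of the HEK293T cells, the comparison with DG-75 had 5 members past 2-fold higher and 13 lower.

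The ratio of cells over RNA differed between the larger and the smaller input in 10 members by the interaction in edgeR. On the log2 scale, as the larger minus the smaller input, it was -1.75 for LARS2, -1.55 for TARS2, -1.31 for SARS2, -1.21 for AARS, -1.10 for EARS2, -1.09 for HARS2, -1.03 for CARS, -1.01 for YARS, -0.98 for MARS and -0.88 for FARSA.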

How the results depend on the processing

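Over single members, 1270 of the values under an alternative were rated the same, 83 lost the call, 3 moved and 3 reversed. In tested comparisons, same meant the same direction and side of the threshold. In single-cell ratios it meant the same direction and a shift within the larger SD between cells, a loose rule. Of the counts of members, 212 were rated the same as in the main setting and 65 as moved. RARS2 in 100 cells against 1 ng became -0.27 with the length and GC offset and -0.27 with the block and the offset. HARS in single cells against 10 pg ran from -1.09 to 0.11 when 1 of the 10 pg libraries was left out. The causes were not tested. With all 6 input groups in 1 fit the counts of members called were 13 for 100 cells against 1 ng, 3 for 10 cells against 100 pg, 8 for 100 against 10 cells, 1 for 50 against 10 cells and 8 for 1 ng against 10 pg. For 50 against 10 cells, library totals gave 10 and limma 10 with either pseudocount. For 1 ng against 10 pg, DESeq2 gave 6, limma on log2(RPKM + 1) 5 and the offset 6. For the interaction, library totals gave 16 and the near-identical 100-cell libraries taken as 1 gave 6. For variant 2 the mean of library CPM gave 1, 5 CPM added 0, TMM 1 and mean RPKM 0, and for variant 4 mean CPM and mean RPKM gave 1 each. Leaving out 1 library gave 18 to 26 for 100 cells against 1 ng, 3 to 9 for 10 cells against 100 pg, 9 to 21 for 100 against 10 cells, 2 to 12 for 50 against 10 cells, 0 to 21 for 1 ng against 10 pg, 6 to 16 for the interaction, 17 to 20 for DG-75, 0 to 2 for variants 1 and 4, 0 to 4 for variant 2 and 6 to 14 for single cells against 10 pg.

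With the replicate block the counts were 22 for 100 cells against 1 ng, 7 for 10 cells against 100 pg, 21 for 100 against 10 cells, 15 for 50 against 10 cells, 7 for 100 against 50 cells, 0 for 1 ng against 100 pg and 10 pg, and 4 for the interaction. With the block and the offset they were 9 for 50 against 10 cells, 5 for 100 against 50 cells and 0 for 1 ng against 10 pg. The same libraries without the block gave 3 for 10 cells against 100 pg, 0 for 1 ng against 10 pg and 4 for the interaction. No label states that these numbers pair libraries, and only for 100 against 50 cells did all correlations of deviations pass 0.1.

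Library totals in place of TMM changed the split of all genes called, higher and lower in the first group, from 3406 and 3802 to 2501 and 4535 for 100 cells against 1 ng, from 1568 and 1999 to 851 and 3119 for 100 against 10 cells, from 356 and 923 to 256 and 1177 for 50 against 10 cells, and from 882 and 1306 to 440 and 1987 for the interaction. Several mitochondrial members had 0 reads in 10 pg libraries and DG-75 cells, where their level has only an upper limit.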
